A study of Triticum aestivum with 21 samples.

Results

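Wheat anthers at the tetrad stage (T) were compared with anthers between telophase I and telophase II (TT), the stage collected just before, to ask which transcripts appear or disappear as meiosis ends. The 2 stages took 6 of the 21 arrays of the series, 3 for T and 3 for TT, and all 61179 probe sets other than array controls were tested. A probe set was called newly expressed when it was called higher in T, had a TT mean below 5 on the log2 scale and reached 5 in T, and already expressed when its TT mean was at least 5. All plants were wild-type Triticum aestivum of the cultivar Chinese Spring, untreated and grown in a glasshouse. One anther of each floret was squashed to read its stage, the other two were frozen, and at least 25 anthers per stage were pooled before RNA was extracted. The RNA of each stage was amplified in 2 rounds and placed on 3 arrays, so the arrays are technical replicates of 1 pool, and the p-values measure the spread between arrays and not between plants. The 5 other stages, used here to follow the same probe sets and in the shared estimate of the spread, were anthers not yet in meiosis (PM), prophase I up to pachytene (LP), the interval between diplotene and anaphase I (DA), immature pollen (IP) and, last, mature anthers (MAN).

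During tetrad formation the meiocyte divides its cytoplasm and the haploid products stay together inside a wall of callose, a glucan. The tapetum, the cell layer that lines the anther locule, is known to secrete the enzymes that later dissolve the callose and to supply precursors of the sporopollenin in the outer pollen wall, which begins to be patterned on the young microspores. Whole anthers were extracted, so RNA of the tapetum, the other wall layers and the meiotic cells was measured together, and fewer cells of a type cannot be told apart from less RNA per cell.

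Probe sets are named here as the array names them, in the form Ta followed by the number of a sequence cluster, or TaAffx for assemblies made for the array. The value of a probe set is the log2 of its deposited intensity, so a difference of 1 is 2-fold, and intensities of different probe sets are not comparable with each other. A mean below 5 was read as not expressed, so a fold measured from such a level may understate the change. The array does not separate the copies of a gene in the 3 wheat genomes. The platform's annotation gives a gene symbol for 1273 of the tested probe sets, and for 1073 of these the symbol is only a locus number. None of the 15 and 10 largest rises and the 10 largest falls described below has a gene name, and only 1 of them, a fall, has a locus number. No sequence of a probe set was analysed here.

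The arrays of the 2 stages were close to each other. Pearson's r over all probe sets was 0.996 to 0.998 between T arrays, 0.994 to 0.998 between TT arrays and 0.985 to 0.992 between a T and a TT array, as a description over probe sets that are not independent. The lowest values within TT and between the stages all involved TT replicate 2. The median standard deviation of a probe set over 3 arrays was 0.0963 in T and 0.131 in TT. The bacterial transcripts that are spiked in before labelling, the poly-A controls, averaged 6.37, 6.38 and 7.09 in the T arrays, against 6.38, 6.34 and 6.40 in the TT arrays, so T replicate 3 stood apart. The hybridization controls averaged 10.18, 10.05 and 9.90 in T and 10.26, 10.05 and 10.34 in TT. In IP they averaged 8.69, 10.36 and 10.28, so IP replicate 1 stood apart from the other IP arrays.

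Between T and TT, 3807 probe sets were called at an adjusted p under 0.05 in limma, which is 6.22% of those tested. Of these, 1916 (3.13%) were higher in T and 1891 (3.09%) were lower. The directions were close to equal in number among all calls but not among the large ones. At least 2-fold higher were 531 probe sets (0.868%), against 108 (0.177%) that were at least 2-fold lower, and at 4-fold the counts were 154 and 2. A rise of at least 8-fold was seen in 69 probe sets, of at least 64-fold in 12 and of at least 256-fold in 2, while no fall reached 8-fold. In all 639 probe sets called at 2-fold or more, the 3 T arrays and the 3 TT arrays did not overlap, as was the case for 15891 (26.0%) of all probe sets. The counts of all calls dropped whichever 1 of the 6 arrays was left out. The 1891 lower calls became 1225, 1217 and 1082 without T replicate 1, 2 or 3. Without TT replicate 1, 2 or 3 they became 1216, 1411 and 1373. The 1916 higher calls became 1352 to 1606. Scaling every array to its hybridization controls moved the median of all probe sets from -0.01 to 0.16 on the log2 scale. It left 528 higher and 25 lower, so that 95.5% of the calls were higher. This scaling also changed IP replicate 1, with its low controls, which entered the shared estimate of the spread. The named probe sets that then lost their call all had an SE of 0.34. Scaling without that array was not tested. Without scaling, omitting it gave 2226 higher and 2423 lower.

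**Figure D1:**
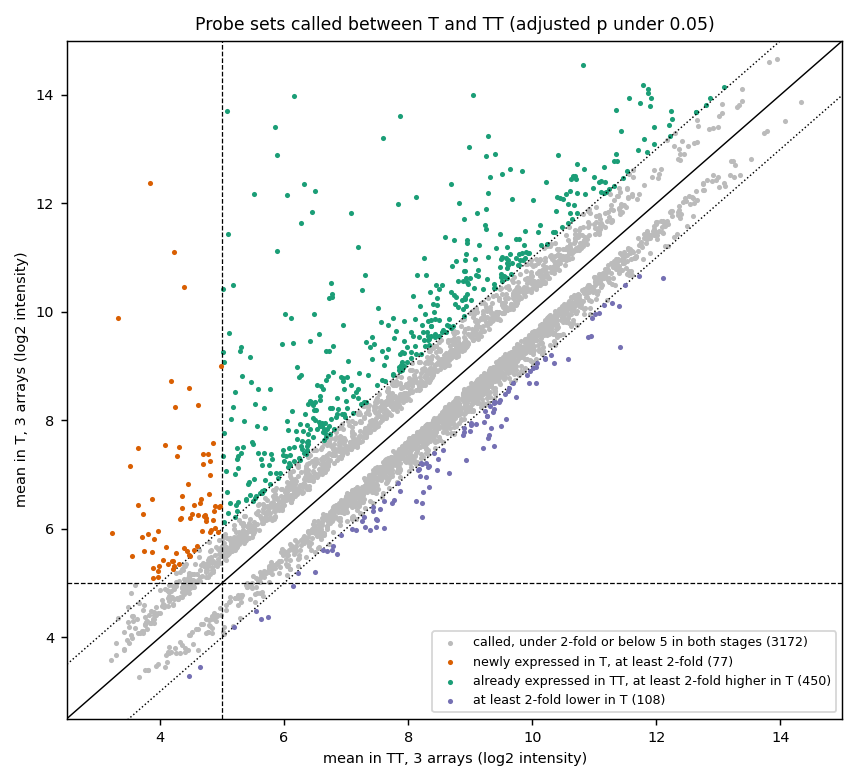
Each point is 1 of the 3807 probe sets called between T and TT, at its mean over 3 T arrays (vertical, log2 intensity) and its mean over 3 TT arrays (horizontal, log2 intensity), with the solid line at equality, dotted lines at 2-fold and dashed lines at 5. The 77 newly expressed probe sets lie left of the vertical dashed line, the 450 already expressed rises reach further from the diagonal than any of the 108 falls, and the grey points are calls under 2-fold or, for 4 of them, rises that stay below 5 in both stages.

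Newly expressed probe sets numbered 158 at any size and 77 at 2-fold or more, and 4 further rises of at least 2-fold stayed below 5 in both stages. These 77 had a median level of 6.20 in T, against 4.36 in TT, and a median rise of 1.83. The 4 largest rises were far above the rest. Ta.24618.2.S1_s_at was measured at 12.34, 12.45 and 12.30 in T, against 4.27, 3.41 and 3.86 in TT. Its rise of 8.52 ± 0.18 (SE) is 368-fold (limma, adjusted p = 1.45e-21). Every T array lay more than 8 log2 units above every TT array of this probe set, and the wide spread within TT, with an SD of 0.43, was among values below 5. The other probe sets of this cluster number moved the same way from higher TT levels, Ta.24618.2.S1_at by 5.24 and Ta.24618.1.S1_x_at by 4.06.

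Ta.13455.1.S1_at was measured at 10.95, 11.13 and 11.23 in T, against 4.30, 3.99 and 4.39 in TT, a rise of 6.87 ± 0.15 or 117-fold (limma, adjusted p = 1.45e-21). TaAffx.59835.1.S1_x_at was measured at 10.01, 9.80 and 9.84 in T, against 3.36, 3.13 and 3.49 in TT, a rise of 6.56 ± 0.16 or 94.1-fold (limma, adjusted p = 1.6e-20). Ta.4101.1.A1_at was measured at 10.24, 10.63 and 10.48 in T, against 4.26, 4.61 and 4.28 in TT, a rise of 6.07 ± 0.14 or 67.1-fold (limma, adjusted p = 1.27e-20). The arrays of T and TT stood at least 5 log2 units apart in each of the 3. The next 11 by size rose by 2.78 to 4.55, and the highest adjusted p among all 15 was 1.55e-12. They were Ta.18223.2.S1_at, Ta.11613.1.A1_at, Ta.9926.1.A1_at, Ta.3869.1.S1_at, Ta.23832.1.S1_at, Ta.11515.2.S1_at, Ta.14926.1.A1_at, TaAffx.105858.1.S1_at, Ta.11266.1.S1_at, Ta.11786.1.A1_at and Ta.13454.1.S1_at. Of the 15, 14 had means below 5 in PM, LP and DA. The exception, Ta.11515.2.S1_at, averaged 5.37 in PM, so by the boundary at 5 it was present before meiosis. Ta.11515.1.S1_a_at, of the same cluster number, averaged 8.06 in PM and 6.32 in TT and is among the already expressed below. Ta.11515.3.S1_at and Ta.11515.3.S1_x_at stayed below 5 in every stage and were not called.

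**Figure D2:**
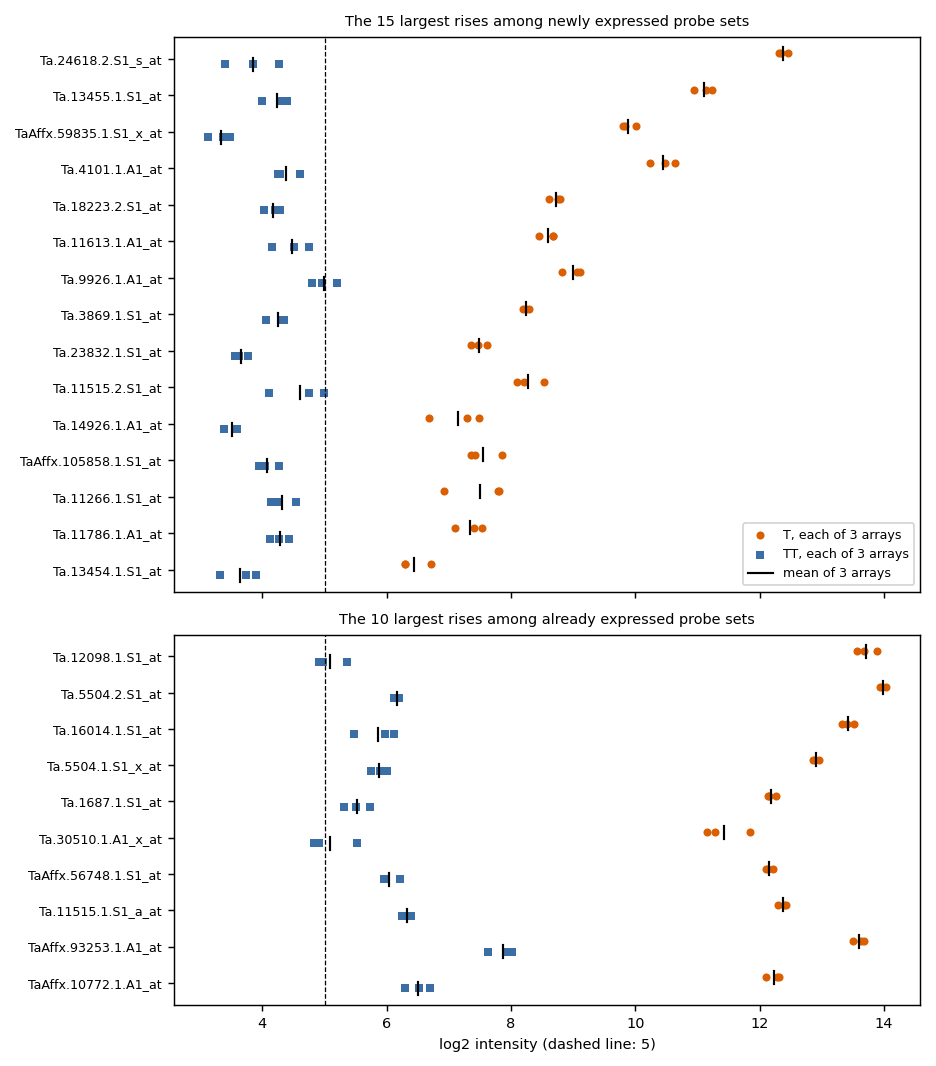
Each row is a probe set, with the 3 T arrays as circles, the 3 TT arrays as squares and a short bar at the mean of each stage, on a log2 intensity axis with a dashed line at 5. The T and TT arrays are separated in all 25 rows because only probe sets without overlap were chosen. The gap is widest for Ta.12098.1.S1_at in the lower panel and Ta.24618.2.S1_s_at in the upper one.

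The means of the other stages were not part of the T minus TT difference, although their arrays entered the shared estimate of the spread that decided the calls, and they show when the transcripts were present. Of the 77, 69 had means below 5 in PM, LP and DA as well, and none was called between DA and PM, where 2.24% of all probe sets were called higher and 2.25% lower, so that few would be called at the share of all probe sets. Between IP and DA, a difference of 2 other stages in the same fit, 62 of the 77 (80.5%) were called higher in IP, against 10.5% of all probe sets. Only 1 was called lower, against 15.5%. The DA mean was below 5 in 75 of the 77, which leaves little room for a lower call, so nothing is read from that count. The median difference between IP and DA was 1.74 over the 77 and -0.05 over all probe sets tested. Between MAN and IP, 53 of the 77 (68.8%) were called lower in MAN, against 25.6% of all probe sets, and 10 were called higher, against 38.6%. The stage with the highest mean was T for 34, IP for 34 and MAN for 9, and 45 stayed below 5 in every stage other than T and IP.

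Several of the 15 climbed further in immature pollen. TaAffx.59835.1.S1_x_at averaged 3.32, 3.28, 3.17 and 3.33 in PM, LP, DA and TT, then 9.88 in T, 13.95 in IP and 3.28 in MAN. TaAffx.105858.1.S1_at averaged 4.08 in TT, 7.54 in T, 12.67 in IP and 4.05 in MAN, and Ta.3869.1.S1_at averaged 4.24 in TT, 8.24 in T, 12.82 in IP and 4.92 in MAN. For these the T level was an intermediate step, and the MAN level was back below 5. Among the 15, 5 had an IP mean at least 1 above that in T, and 10 had a MAN mean below 5. Ta.13455.1.S1_at was level between T and IP, at 11.10 and 11.14, and Ta.13454.1.S1_at was still at 6.25 in MAN, against 6.43 in T and 6.59 in IP.

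A smaller number stood highest in the tetrad stage. In 15 of the 77 the T mean was at least 1 above every other stage. Not all of these were absent elsewhere, since Ta.11266.1.S1_at, which is among them, had an IP mean above 5. Only 9 of the 77 were below 5 in all stages but T. Ta.9926.1.A1_at was measured at 9.07, 9.11 and 8.82 in T, against 4.96, 5.20 and 4.80 in TT, a rise of 4.01 ± 0.13 or 16.2-fold (limma, adjusted p = 7.96e-18). Its means in the other stages were between 4.89 and 5.21, so that only the T arrays left the level of 5, and its TT mean of 4.98 was the closest to the boundary of any of the 77. Ta.11786.1.A1_at was measured at 7.10, 7.54 and 7.41 in T, against 4.44, 4.13 and 4.27 in TT, and averaged 4.80 in IP and 3.41 to 3.61 in PM, LP, DA and MAN. TaAffx.65806.1.A1_at, chosen after its values were seen, was measured at 6.01, 6.59 and 6.22 in T, against 3.69, 3.70 and 3.78 in TT, and its other stages averaged 3.76 to 3.94. The rise of this probe set was 2.55 ± 0.12 (limma, adjusted p = 2.88e-14).

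**Figure D3:**
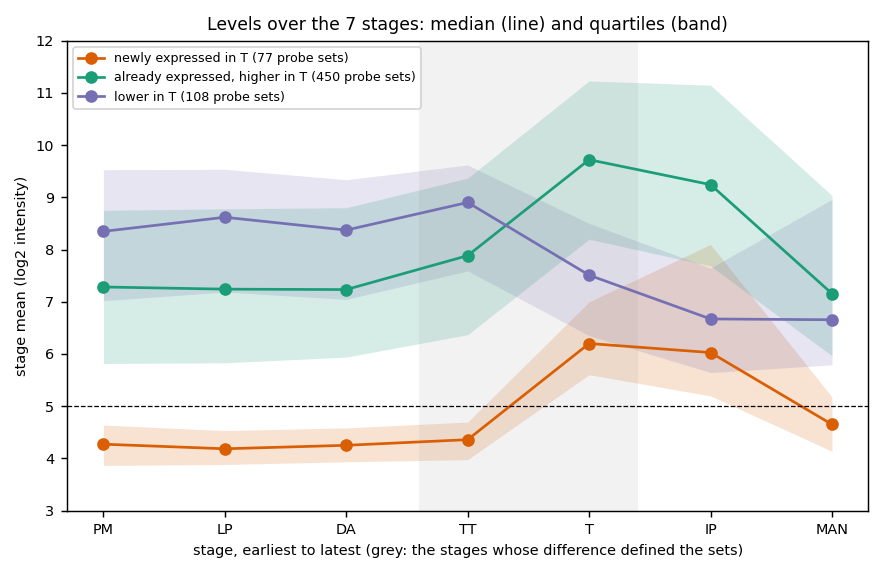
The median (line) and quartiles (band) of stage means in log2 intensity are drawn over the 7 stages for the 77 newly expressed, the 450 already expressed and the 108 lower probe sets, with a dashed line at 5 and the stages whose difference defined the sets in grey. The newly expressed set has medians of 4.18 to 4.36 from PM to TT, 6.20 in T, 6.03 in IP and 4.65 in MAN, while the lower set has its lowest medians in IP and MAN, at 6.67 and 6.65.

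Already expressed probe sets made up most of the rises, 1660 of the 1916 at any size and 450 of the 531 at 2-fold or more. The 450 had a median level of 9.72 in T, against 7.88 in TT, and a median rise of 1.48. The largest change of the whole comparison was among them. Ta.12098.1.S1_at was measured at 13.88, 13.68 and 13.56 in T, against 5.37, 4.91 and 4.97 in TT, a rise of 8.63 ± 0.16 or 395-fold (limma, adjusted p = 7.91e-23). TT replicates 2 and 3 were below 5, so TT replicate 1 alone placed it among the already expressed. Its means in PM, LP and DA were 5.21, 5.04 and 4.82, and it was at 13.64 in IP and 8.44 in MAN.

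Ta.5504.2.S1_at was measured at 13.96, 14.04 and 13.93 in T, against 6.20, 6.20 and 6.11 in TT, a rise of 7.81 ± 0.12 or 225-fold (limma, adjusted p = 4.4e-24). Ta.5504.1.S1_x_at, of the same cluster number, rose by 7.02 ± 0.12, and both were high again in IP, at 13.74 and 12.66, and in MAN, at 11.15 and 9.02. The ending _x_at marks a probe set whose probes can match more than 1 transcript. Ta.16014.1.S1_at was measured at 13.41, 13.51 and 13.32 in T, against 6.12, 5.98 and 5.48 in TT, a rise of 7.55 ± 0.16 or 188-fold (limma, adjusted p = 1.44e-21). It averaged 14.45 in IP and 5.05 in MAN, and Ta.1687.1.S1_at, which rose by 6.66 ± 0.14, averaged 12.88 in IP and 4.85 in MAN. The remaining 5 of the 10 largest, Ta.30510.1.A1_x_at, TaAffx.56748.1.S1_at, Ta.11515.1.S1_a_at, TaAffx.93253.1.A1_at and TaAffx.10772.1.A1_at, rose by 5.72 to 6.34.

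Among the stages that are not part of the T minus TT difference, most of the 450 were also higher in IP than in DA and lower again in MAN. Between IP and DA 367 (81.6%, against 10.5% of all probe sets) were called higher in IP and 15 lower (against 15.5%), with a median difference of 1.24. Between MAN and IP 331 (73.6%, against 25.6% of all probe sets) were called lower in MAN and 72 higher (16.0%, against 38.6%), with a median of -1.43. Between DA and PM 44 were called higher (9.78%, against 2.24% of all probe sets) and 36 lower (8%, against 2.25%). The highest stage was T for 289 of the 450, IP for 115 and MAN for 42, and 108 had a T mean at least 1 above every other stage.

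For some of these the rise had begun in TT. In 51 of the 450 the TT mean was at least 1 above those of PM, LP and DA, and 19 were below 5 in all 3 of the earlier stages. TaAffx.93253.1.A1_at averaged 3.44, 3.36 and 3.62 in PM, LP and DA, and was measured at 13.68, 13.63 and 13.50 in T, against 8.01, 7.63 and 7.95 in TT. Its rise was 5.74 ± 0.16 (limma, adjusted p = 3.4e-19), and it stood at 14.03 in IP and 3.37 in MAN. Ta.3297.1.S1_at averaged 4.95 to 4.98 in the 3 earlier stages, and was measured at 14.10, 14.05 and 13.86 in T, against 9.24, 8.73 and 9.16 in TT, a rise of 4.96 ± 0.14 (limma, adjusted p = 4.29e-19). Its IP mean was 14.12. Ta.3297.1.S1_at and the probe sets of the next 2 paragraphs were named after their values were seen.

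A group with the same early start was lower again in IP. TaAffx.70070.1.S1_at was measured at 12.93, 12.96 and 12.73 in T, against 9.28, 9.18 and 9.29 in TT, with an IP mean of 9.38 and means of 4.31 to 4.43 in PM, LP and DA. TaAffx.110980.1.S1_at had the same shape, at 12.02, 12.15 and 12.21 in T, against 8.08, 8.41 and 7.87 in TT, and 8.61 in IP. These rises were 3.62 ± 0.20 and 4.01 ± 0.16. A cluster with 3 probe sets was above 5 in T, or in T and TT, and in no other stage. Ta.23066.2.S1_s_at was measured at 9.50, 9.51 and 9.32 in T, against 7.30, 7.13 and 7.52 in TT, and averaged 3.33 in IP. Ta.23066.1.S1_x_at averaged 7.25 in T and 5.99 in TT, and Ta.23066.1.S1_s_at 5.95 in T and 4.93 in TT, so the boundary at 5 put probe sets of 1 cluster in different sets. All 3 passed the test in limma, with rises of 2.13, 1.26 and 1.01, and the last did not pass the methods' t-test.

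Other already expressed probe sets had been high before, or became higher after IP. Ta.16030.1.S1_at averaged 9.16 in PM and 6.89 in DA, and was measured at 11.87, 11.81 and 11.77 in T, against 9.26, 8.96 and 9.13 in TT, a rise of 2.70 ± 0.16 (limma, adjusted p = 4.4e-12). Ta.3767.2.S1_a_at was measured at 7.87, 8.34 and 8.52 in T, against 5.39, 4.90 and 5.22 in TT, and averaged 4.94 in IP and 13.46 in MAN. Ta.25256.1.A1_at likewise averaged 8.52 in T, 5.21 in TT, 5.75 in IP and 10.41 in MAN. In both, the tetrad level was above that of the stages on either side and below that of mature anthers.

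**Figure D4:**
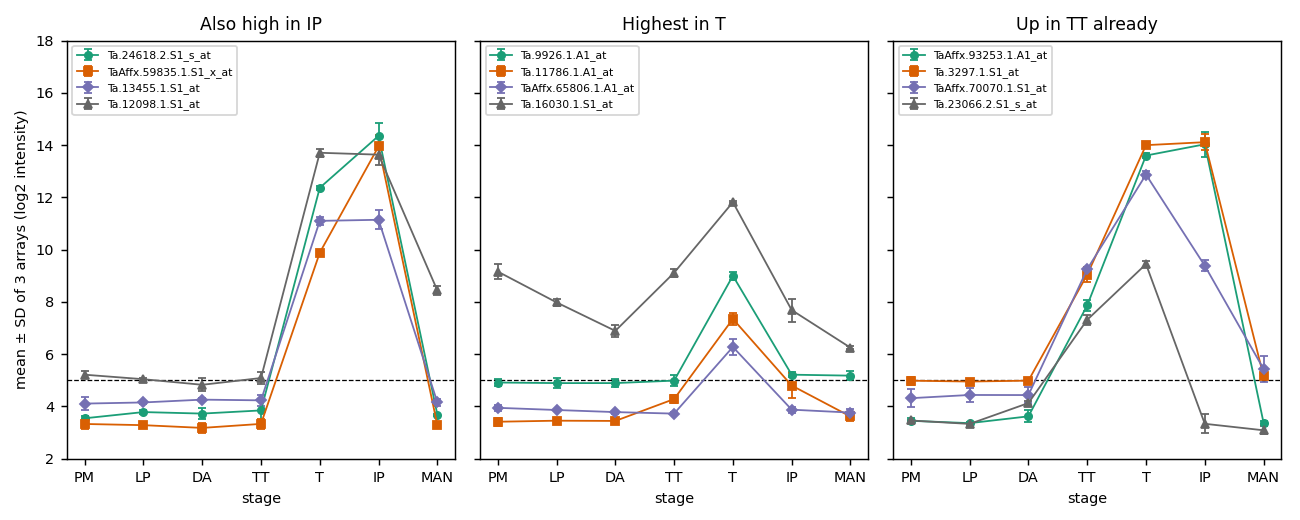
Stage means with the SD of 3 arrays (log2 intensity) are drawn over the 7 stages for 12 probe sets, 4 in each panel, with a dashed line at 5. The left panel shows T and IP levels both above 9, the middle panel shows means that are highest in T, and the right panel shows TT means of 7.31 to 9.25 that lie between the earlier stages and T.

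The boundary at 5 cut through a continuous range of TT levels. Just above it were Ta.1047.3.S1_a_at, with a TT mean of 5.01 and T arrays of 9.16, 9.29 and 9.33, and Ta.9997.1.S1_x_at, with a TT mean of 5.02 that covered arrays of 5.65, 4.22 and 5.19. Just below it, besides Ta.9926.1.A1_at, was Ta.3542.1.S1_at, with a TT mean of 4.97, a T mean of 6.42 and an IP mean of 14.42. With the boundary at 4 the newly expressed probe sets were 24, and with the boundary at 6 they were 122.

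Falls were smaller and reached fewer probe sets. The 108 that fell at least 2-fold had a median level of 7.51 in T, against 8.90 in TT, and a median change of -1.17, and only 5 of them crossed from at least 5 in TT to below 5 in T. Ta.7353.1.A1_at was measured at 9.26, 9.45 and 9.31 in T, against 11.35, 11.56 and 11.31 in TT, a difference of -2.07 ± 0.13 (limma, adjusted p = 1.29e-11). Its stage means were 11.37, 12.25 and 12.75 in PM, LP and DA, and 8.67 and 7.49 in IP and MAN, so the level in T was one step of a decline that followed DA. Ta.20684.1.S1_at was measured at 6.23, 6.23 and 6.17 in T, against 8.34, 8.17 and 8.17 in TT, a difference of -2.01 ± 0.15 (limma, adjusted p = 4.64e-10). Here TT was the highest stage, and PM, at 6.19, was as low as T.

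TaAffx.76007.1.S1_at was measured at 7.42, 7.62 and 7.53 in T, against 9.40, 9.32 and 9.42 in TT, and averaged 5.95 in IP and 9.12 in MAN. Ta.4494.1.S1_x_at, which fell by 1.62, averaged 7.67 in T, 9.29 in TT, 6.95 in IP and 14.44 in MAN. Both were lowest in T and IP, and Ta.4494.1.S1_x_at was highest in mature anthers. The other 6 of the 10 largest falls, Ta.8471.1.S1_x_at, TaAffx.12044.1.S1_at, Ta.4470.1.S1_at, Ta.13471.1.S1_at (locus LOC778407), Ta.22180.1.S1_x_at and Ta.30884.1.A1_at, fell by 1.61 to 1.75. Between IP and DA 95 of the 108 (88.0%) were called lower in IP, against 15.5% of all probe sets. Called higher were 5, against 10.5% of all probe sets, and the median was -1.34. Between MAN and IP 48 (44.4%) were called higher and 39 (36.1%) lower, near the 38.6% and 25.6% of all probe sets. The highest stage of the 108 was TT for 47, MAN for 22, LP for 13, DA for 12, PM for 11 and IP for 3. Scaling to the hybridization controls left 25 falls of at least 2-fold, and all 25 were among the 108.

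The array often holds several probe sets for 1 cluster number, which is a check within the same arrays. The 77 newly expressed probe sets came from 75 clusters, the 450 from 368 and the 108 from 97. In 2, 64 and 9 of these clusters, several probe sets were in the set itself. Such members are left out of the next values, which therefore understate how far probe sets of a cluster moved together. Probe sets of the same clusters outside the set had a median difference of 0.05 for the newly expressed (162 probe sets, 24 called higher and 3 lower). The median was 0.20 for the already expressed (235, 77 higher and 0 lower) and -0.47 for the lower ones (63, 0 higher and 31 lower). Of all probe sets, 3.13% were called higher and 3.09% lower. Ta.9926.1.A1_at shows the limit of the check, since Ta.9926.2.S1_at rose by 0.83 and Ta.9926.3.S1_at differed by -0.00. It was not the only case among the largest rises. Ta.3869.2.S1_at differed by 0.20 and Ta.23832.2.S1_at by 0.11, neither called, beside rises of 4.00 in Ta.3869.1.S1_at and 3.83 in Ta.23832.1.S1_at. In the clusters of Ta.24618.2.S1_s_at and Ta.5504.2.S1_at every probe set rose. Names with A1, which mark the antisense orientation in the array's naming, made up 27.3% of the newly expressed, 22.0% of the already expressed and 25.0% of the lower ones, beside 17.4% of all probe sets tested. Probe sets that can share probes with other transcripts, with the endings _s_at, _x_at and _a_at, were 24.7%, 30.7% and 24.1% of the 3 sets, beside 20.8% of all.

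Of the 200 probe sets with a gene name or synonym, 9 were called higher, 2 lower and none reached 2-fold, and of the 1073 with a locus number only, 15 rose and 7 fell by at least 2-fold. With a locus number only, the rises and falls were larger shares of their set than the 0.868% and 0.177% of all probe sets. The counts of both sets are small, and nothing is read from the difference. In 20 lists of named genes with 182 probe sets, 9 were called higher and 1 lower, in 7 of the lists, beside 3.13% and 3.09% of all probe sets. The largest of these was BMY1, a beta-amylase, an enzyme of starch breakdown: it was measured at 10.06, 10.03 and 10.07 in T, against 9.13, 9.16 and 9.00 in TT, a rise of 0.96 ± 0.12 (limma, adjusted p = 3.66e-06). Its highest stage mean was 11.59 in IP. LTP3, a lipid transfer protein of the kind that binds lipids outside the cell, was measured at 6.56, 6.55 and 7.05 in T, against 5.93, 5.60 and 6.04 in TT, a rise of 0.87 ± 0.14 (limma, adjusted p = 0.000141). One other probe set of LTP3 was not called, and 2 probe sets of the same cluster number that are annotated only as LOC100037539 rose by 1.78 and 1.54.

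The other called members were small rises of 0.42 to 0.85 and 1 fall. Prx1, a peroxidase, rose by 0.58 in 1 of its 4 probe sets, GLU1A, a beta-glucosidase, by 0.59, xip, a xylanase inhibitor, by 0.52 and 0.42 in its 2 probe sets, Pgk-1, the phosphoglycerate kinase of glycolysis, by 0.44, and PCS1, a phytochelatin synthase, by 0.43. One of 28 probe sets assigned to rbcl, the Rubisco large subunit, rose by 0.85. The ribosomal protein RPS29 fell by 0.63 in 1 of its 2 probe sets, at 8.18, 8.30 and 8.19 in T, against 8.90, 8.73 and 8.93 in TT, and TBP-1, a TATA-box binding protein that is in no list, fell by 0.40. None of these 10 calls in the lists was kept after scaling to the hybridization controls. That fit included IP replicate 1 with its low controls. In it BMY1 differed by 1.13, LTP3 by 1.04, Prx1 by 0.75 and RPS29 by -0.45, each with an SE of 0.34. The methods' t-test did not call LTP3, Prx1, rbcl, either xip probe set, PCS1, Pgk-1 or TBP-1. BMY1, LTP3, Prx1 and RPS29 stayed called whichever 1 of the 6 arrays was left out, whereas rbcl was lost without T replicate 1, TT replicate 1 or TT replicate 3. PCS1, GLU1A and the xip probe set that rose by 0.42 lost their calls whichever array was left out. Pgk-1 was kept only without TT replicate 3. The other xip probe set was kept only without T replicate 1 or TT replicate 2.

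**Figure D5:**
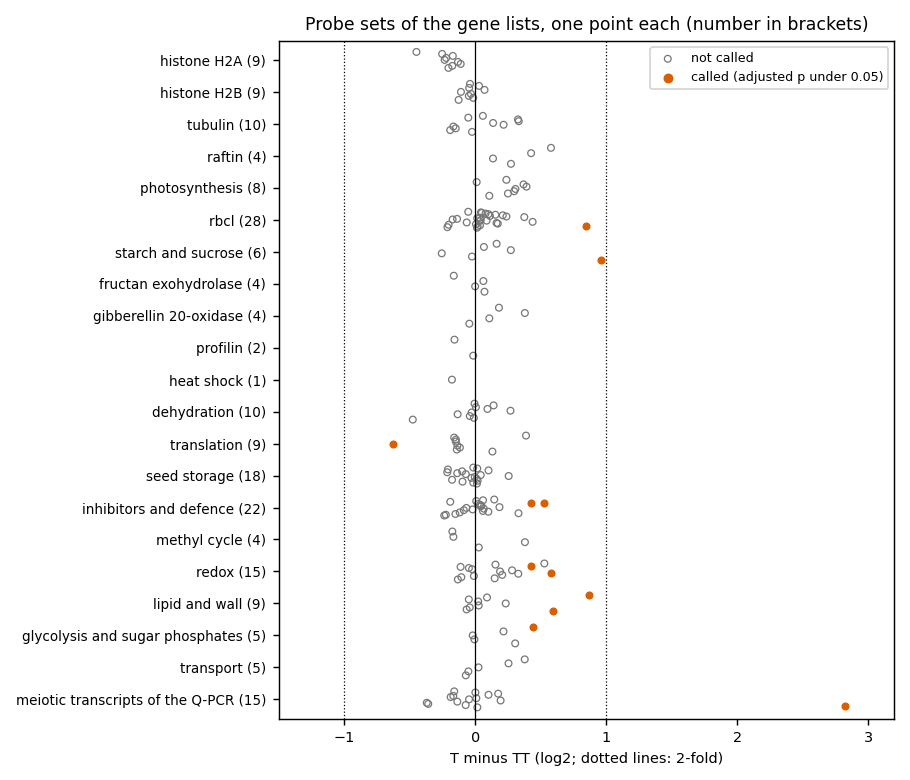
Each point is 1 probe set at its T minus TT difference (log2), in rows by gene list with the number of probe sets in brackets, filled where the adjusted p was under 0.05, with dotted lines at 2-fold. The 20 lists of named genes lie within 1 of zero, and the only filled point beyond 2-fold is WMC10 at 2.82, among the meiotic transcripts.

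The raftins, genes of the tapetum, and the histones and tubulins of the dividing cell were among the lists with no call. Lipid transfer proteins had also been set as tapetum markers, and 1 probe set of LTP3 was called higher, by 0.87, as given above. The raftin probe sets had a median level of 12.33 in T, so this tapetal marker was present in these anthers, as were the meiotic markers ASY1 and DMC1. The raftins, tapetal proteins that are carried to the pollen wall, had differences of 0.13 to 0.58 in 4 probe sets of 2 genes. All 4 had T above TT, and the median of the list was 0.35. Raftin1b probe set Ta.4091.1.S1_s_at was measured at 12.41, 12.79 and 12.95 in T, against 11.96, 12.28 and 12.18 in TT (limma, adjusted p = 0.146). All 8 photosynthesis probe sets, of 5 genes, also had T above TT, with a median of 0.27. All 9 histone H2A probe sets, of 3 genes, had T below TT, with differences of -0.45 to -0.11 and a median of -0.21. The 9 of H2B had a median of -0.04. Over all probe sets, 28807 of 61179 had T above TT. Probe sets of 1 gene measure it repeatedly on the same arrays, so a shared direction does not count genes. After scaling to the hybridization controls 6 of the 9 H2A probe sets remained below TT and their median was -0.03. The 10 tubulin probe sets ranged from -0.19 to 0.33. None of these 40 probe sets was called, which leaves changes of this size undecided, and other fits called some of them. With array weights 3 raftin, 2 tubulin, 1 photosynthesis and 1 H2A probe sets were called, and with the T and TT arrays alone 2 raftin, 1 photosynthesis and 1 H2A, while the poly-A covariate fit called 1 H2A. In the other lists with no call the median difference was 0.03 for fructan exohydrolases (4 probe sets), 0.14 for gibberellin 20-oxidases (4), -0.09 for profilin (2), -0.18 for the small heat shock protein (1), -0.01 for dehydration proteins (10), -0.02 for seed storage proteins (18), -0.07 for methyl cycle enzymes (4) and 0.02 for transporters (5).

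The transcripts that the study followed by Q-PCR include the genes of meiotic recombination, which acts long before tetrads form. Of the 15, 1 was called, beside 6.22% of all probe sets, so that few would be called at that share. It was WMC10 (TaAffx.38162.1.S1_at), a wheat meiosis candidate. WMC10 was measured at 11.92, 11.84 and 11.39 in T, against 8.92, 8.91 and 8.86 in TT, a rise of 2.82 ± 0.14 or 7.08-fold (limma, adjusted p = 7.63e-14). It averaged 8.22, 5.64 and 6.74 in PM, LP and DA, 9.66 in IP and 13.46 in MAN, so the T level was higher than that of the stages on either side. The other 14 had differences of -0.37 to 0.19. The recombinase DMC1 averaged 10.21 in T and 10.20 in TT, and the axis protein ASY1 averaged 9.84 in T and 9.91 in TT, both below their means in PM, which were 11.81 and 10.90. RAD51B, a gene of recombinational DNA repair, was measured at 10.51, 10.48 and 10.37 in T, against 10.85, 10.82 and 10.81 in TT. Its arrays did not overlap, and its difference of -0.37 ± 0.12 did not pass the test (limma, adjusted p = 0.0691). RAD51B did pass in a fit of the T and TT arrays alone, in the methods' t-test, without IP replicate 1 and with array weights. RAD54 differed by -0.36 (limma, adjusted p = 0.106) and was called with the T and TT arrays alone (limma, adjusted p = 0.0417) and with array weights (limma, adjusted p = 0.0129). The arrays of 10 of the 15 overlapped, and 33.3% of the list was without overlap, beside 26.0% of all probe sets. Of the 12 further probe sets that the study names by their identifiers, 1 was called, too small a number to compare with the 6.22%. It was Ta.6922.1.S1_at, at 6.62, 6.75 and 6.50 in T, against 5.36, 5.55 and 5.45 in TT, a rise of 1.17 ± 0.15.

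Among probe sets with a locus number only, LOC543048 (Ta.3251.1.A1_at) had the largest rise. It was measured at 12.44, 12.59 and 12.51 in T, against 10.67, 10.64 and 10.76 in TT, a rise of 1.82 ± 0.14 (limma, adjusted p = 3.62e-10), and T was its highest stage. LOC542999 (Ta.14632.1.S1_at) was measured at 8.44, 8.39 and 8.45 in T, against 9.79, 9.72 and 9.69 in TT, a difference of -1.30 ± 0.27 (limma, adjusted p = 0.00255). Its second probe set, Ta.14632.1.S1_x_at, differed by -1.26, and both were lower still in IP. LOC543135 fell in both of its probe sets as well, by 1.17 and 1.45. The calls of both LOC542999 probe sets and of the smaller LOC543135 fall were lost after scaling to the hybridization controls.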

How the data were processed

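Total RNA of pooled whole anthers was hybridized to a wheat expression array after labelling with biotin. The deposited intensity of each probe set was made by the authors with RMA, which corrects background, normalizes the arrays against each other and summarises the probes, and is on a linear scale. The log2 of each deposited intensity was taken. Of 61290 probe sets, 111 array controls were dropped, and 61179 were tested, without the removal of poorly behaved probe sets that the study describes. A linear model over all 21 arrays with 1 mean per stage was fitted with limma 3.58.1 in R 4.3.3 (14 residual and 10.64 prior degrees of freedom), and p-values were adjusted by Benjamini-Hochberg over all probe sets, with calls at 0.05. The number of arrays limits the precision, and SE is that of the limma fit. The fit and the t-test were tested on simulated data.

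Probe sets were named by rule: the 15 largest newly expressed rises, the 10 largest already expressed rises and the 10 largest falls, each without overlap of arrays, the probe sets the study names by identifier, and up to 4 called members of a gene list. Gene lists were matched on the symbols of the platform annotation. The members, lists and rules were chosen with earlier results of these data known. Replicate numbers did not pair the arrays, since the same-numbered T and TT arrays had correlations of deviations of 0.01, -0.01 and 0.08. The alternatives were the t-test named in the methods (referred to as the methods' t-test), other scalings, array weights, other boundaries, a replicate block and each array left out. Counting and plotting used Python 3.11.15 (pandas 2.3.3, numpy 2.4.6, matplotlib 3.10.9).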

Additional observations from a re-analysis of the deposited data

Results flagged for a closer look

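The array carries wheat transcripts among its control probe sets, which were not tested. In these, glucose-6-phosphate dehydrogenase, the first enzyme of the pentose phosphate pathway, lay above its TT level in T. Control probe set AFFX-Ta_G-6-PDH_5_s_at was measured at 9.75, 9.75 and 10.15 in T, against 8.39, 8.49 and 8.80 in TT, a difference of 1.32. AFFX-Ta_G-6-PDH_M_s_at was measured at 11.80, 11.68 and 11.76 in T, against 10.69, 10.70 and 10.73 in TT, a difference of 1.04. The third probe set of this transcript, AFFX-Ta_G-6-PDH_3_s_at, averaged 13.73 in T and 13.02 in TT, a difference of 0.71. The arrays did not overlap in any of the 3.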

How the results depend on the processing

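The rises and falls of at least 2-fold held under most settings, while the counts of smaller calls did not, and the cause was not tested. With the methods' t-test 900 probe sets were higher and 825 lower after adjustment. At 2-fold or more it gave 60 newly expressed, 396 already expressed and 86 lower, and 41 of the 60 were higher in IP than in DA. Without adjustment, a setting chosen after seeing the data, that test called 4618 higher and 6045 lower. Scaled to the hybridization controls, 528 were higher and 25 lower, with 25 falls of at least 2-fold. That fit included IP replicate 1, whose controls averaged 8.69. Omitting IP replicate 1 without scaling gave 2226 higher and 2423 lower, with 108 falls of at least 2-fold. Array weights gave 4109 higher and 5715 lower. With the boundary at 4, 24 probe sets were newly expressed, 21 of them higher in IP than in DA, and with the boundary at 6 these were 122 and 102. With each array left out in turn the counts were 1352 to 1606 higher, 1082 to 1411 lower, 74 to 81 newly expressed, 425 to 467 already expressed, 105 to 120 lower by at least 2-fold and 59 to 65 newly expressed and higher in IP than in DA. The replicate block gave 1931 higher, 1825 lower, 77 newly expressed, 451 already expressed, 108 lower by at least 2-fold and 62 higher in IP than in DA, and it changed no call of a named probe set. With T and TT arrays only, no comparison of IP with DA was possible.

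The probe sets that changed sign were all uncalled. On array medians DMC1 (Ta.30833.1.S1_at) was at -0.0076. On hybridization controls ASY1 (Ta.9186.1.S1_at) was at 0.10, MSH6 (Ta.24096.1.S1_at) at 0.17, RAD51C (Ta.10540.1.S1_at) at 0.013, RPA (Ta.6986.1.S1_at) at 0.036, WMC3 (Ta.28776.1.A1_at) at 0.0053, WMC5 (Ta.3224.2.S1_at) at 0.13 and TaAffx.60258.2.S1_s_at at 0.14. With the poly-A level as a covariate DMC1 was at -0.028, PHS1 (TaAffx.47591.1.S1_at) at -0.027, TaAffx.60258.2.S1_s_at at 0.016 and Ta.28350.1.S1_a_at at -0.030. With array weights DMC1 was at -0.069, PHS1 at -0.098, TaAffx.60258.2.S1_s_at at 0.079, TaAffx.11970.3.S1_s_at at -0.038, TaAffx.29005.1.S1_at at -0.0020 and Ta.28350.1.S1_a_at at -0.036. With each array left out, MSH6 ranged from -0.15 to 0.16, WMC5 from -0.18 to 0.051, DMC1 from -0.096 to 0.073, PHS1 from -0.13 to 0.11, RAD51C from -0.32 to 0.044, ASY1 from -0.20 to 0.021, TaAffx.60258.2.S1_s_at from -0.12 to 0.10, TaAffx.11970.3.S1_s_at from -0.070 to 0.15, TaAffx.29005.1.S1_at from -0.054 to 0.092 and Ta.28350.1.S1_a_at from -0.056 to 0.066.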
